A study of Mus musculus with 3 samples.

Results

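The transcripts of 10 CC chemokines, Ccl2, Ccl3, Ccl4, Ccl6, Ccl7, Ccl8, Ccl9, Ccl11, Ccl12 and Ccl24, were followed through single cells of ectopic tissue masses in mice. They were chosen by gene symbol, all 10 were found among the 31053 genes in the files, and all 10 passed the minimum of 10 UMIs (tagged molecules) in macrophages and in mesenchymal cells of at least 1 library. The masses formed in CD1 mice, an outbred strain, and were taken 5 days after implantation. Each of 3 groups gave 1 library of 10x Genomics 3' v3 droplets. The first group carried only Matrigel, a basement membrane extract that sets as a gel, and is called the Matrigel library. The second carried Matrigel with recombinant human BMP2, a bone morphogenetic protein that starts cartilage and bone formation at such sites, and received IgG (the IgG library). The third carried the same BMP2 implant and received a neutralizing antibody against activin A (the antibody library). No IgG is named in the labels of the Matrigel group, so wherever the IgG library is set against it, the effects of BMP2 and of IgG cannot be told apart. The sources used here do not give the age or number of animals behind a library. Since each group has 1 library, values have no replicate and are compared without a test, and every interval below is a 95% interval for counting error only. Values in sets of 3 follow the order Matrigel, IgG, antibody.

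CC chemokines are small secreted proteins whose first conserved cysteines lie next to each other, and they draw leukocytes along a gradient by binding G protein-coupled receptors of the CCR family. Ccl2, Ccl7 and Ccl12 act on Ccr2 and draw monocytes out of the blood, Ccl3 and Ccl4 are inflammatory chemokines of activated leukocytes, and Ccl11 and Ccl24 are eotaxins that act on Ccr3 of eosinophils. Mouse Ccl8 acts on Ccr8, and Ccl6 and Ccl9 are chemokines of rodents that act on Ccr1. Injured and implanted tissue takes up monocytes that become macrophages, and both macrophages and fibroblasts can release these proteins.

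All of the genes but Ccl24 form a pair of groups on chromosome 11 of mm10. Ccl2 (82035571 to 82037453), Ccl7 (82045712 to 82047525), Ccl11 (82057823 to 82062955), Ccl12 (82101845 to 82103400) and Ccl8 (82115185 to 82116799) lie on the plus strand within a single stretch. After a gap of 1456.1 kb come Ccl9 (83572919 to 83578636), Ccl6 (83587882 to 83593087) and Ccl3 (83647844 to 83649355) on the minus strand and Ccl4 (83662584 to 83664683) on the plus strand. Ccl24 lies alone on chromosome 5 (135569937 to 135573049, minus strand). All are annotated as protein coding. The adjacent cysteines that give the family its name are given for the genes listed here as the coding sequence around them, 5′ to 3′ on the coding strand, with the codons of the pair in capitals. They lie in exon 3 of Ccl6 and Ccl9 and in exon 2 of the other genes.
Ccl2: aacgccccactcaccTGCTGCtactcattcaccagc
Ccl7: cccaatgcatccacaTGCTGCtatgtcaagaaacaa
Ccl12: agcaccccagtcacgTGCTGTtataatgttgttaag
Ccl8: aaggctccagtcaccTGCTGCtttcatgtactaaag
Ccl11: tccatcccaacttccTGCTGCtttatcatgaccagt
Ccl24: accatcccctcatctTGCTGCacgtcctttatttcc
Ccl4: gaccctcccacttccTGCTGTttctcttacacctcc
Ccl6: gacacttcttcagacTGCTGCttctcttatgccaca
Ccl9: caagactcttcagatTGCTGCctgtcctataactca
The second codon of the pair is TGT in Ccl4 and Ccl12 and TGC in the other genes listed. Over aligned coding bases, identity was highest between Ccl6 and Ccl9 (70.7%), followed by Ccl8 and Ccl12 (70.5%), Ccl2 and Ccl12 (69.7%) and Ccl3 and Ccl4 (69.6%). Reads of this assay come from transcript 3' ends, and the longest run of identical bases shared by any pair in their last 500 transcript bases was 15 (Ccl2 and Ccl12), so a read longer than that run separates them.

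The libraries held 9249, 6065 and 6113 barcodes with 44252421, 46317250 and 38163880 UMIs, and 8541, 5669 and 5675 cells with medians of 3360, 4162 and 3556 UMIs were kept. Between 7 and 19 cell barcodes were shared by any pair of libraries. Mesenchymal cells were those with at least 1% of UMIs from Col1a1, Col1a2 and Col3a1 (1982, 1478 and 591 cells). Macrophages were those under 1% with a UMI of Csf1r or Adgre1 (5563, 3111 and 3034 cells). Of the rest, cells with a UMI of Cd3d, Cd3e, Cd3g, Nkg7, Ncr1, Cd79a, Cd79b or Ms4a1 are called lymphoid cells, and the remainder other cells. All 8 macrophage markers (C1qa, C1qb, C1qc, Cd68, Fcgr1, Mrc1, Cd14 and Lyz2) were detected in the macrophages of each library, with summed levels of 17998 to 22771 CPM (counts per 1000000 UMIs) against 126 to 229 CPM in mesenchymal cells, and all 6 mesenchymal markers were at 17385 to 22275 CPM in mesenchymal cells against 59.1 to 225 CPM in macrophages. Markers of other cells were present at low level among macrophages and were not even between libraries: the 6 dendritic cell markers summed to 60.4, 143 and 74.6 CPM, the 4 neutrophil markers to 38.9, 109 and 105 CPM and the 4 basophil and mast cell markers to 0.363, 40.5 and 33.1 CPM. Of the 4 eosinophil markers, Prg2 was at 0 in macrophages of all 3 libraries. Depth differed between classes, with medians of 3079, 3666 and 4835 UMIs in macrophages and 8752, 17191 and 19185 in mesenchymal cells. A level below is the summed UMIs of a gene over the cells of a class as CPM. Each UMI is 1 captured transcript end, so it is not scaled by transcript length.

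Macrophages held most of the chemokine RNA. Summed over the 10 genes, macrophages were at 7576, 9547 and 11204 CPM and mesenchymal cells at 840.2, 342 and 566 CPM. Ccl8 was the most abundant of the 10 in macrophages of every library and made up 37.1%, 52.7% and 42.9% of their sum. Ccl6 came next in every library, at 2603, 1189 and 2503 CPM. In the IgG library Ccl24 (1187 CPM, 1169 to 1205) could not be ordered against Ccl6 (1189 CPM, 1171 to 1207) by their counting intervals. Ccl2 and Ccl24 were likewise not separated in macrophages of the Matrigel library (226 and 224 CPM), nor Ccl7 and Ccl12 in the antibody library (514 and 524 CPM). Ccl11 was last, at 1.58 to 2.23 CPM. In mesenchymal cells Ccl2 led in the Matrigel library (439 CPM) and the antibody library (204 CPM). Ccl7 (106 CPM, 102 to 109.7) and Ccl2 (99.1 CPM, 95.3 to 103) shared the lead in the IgG library.

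**Figure D1:**
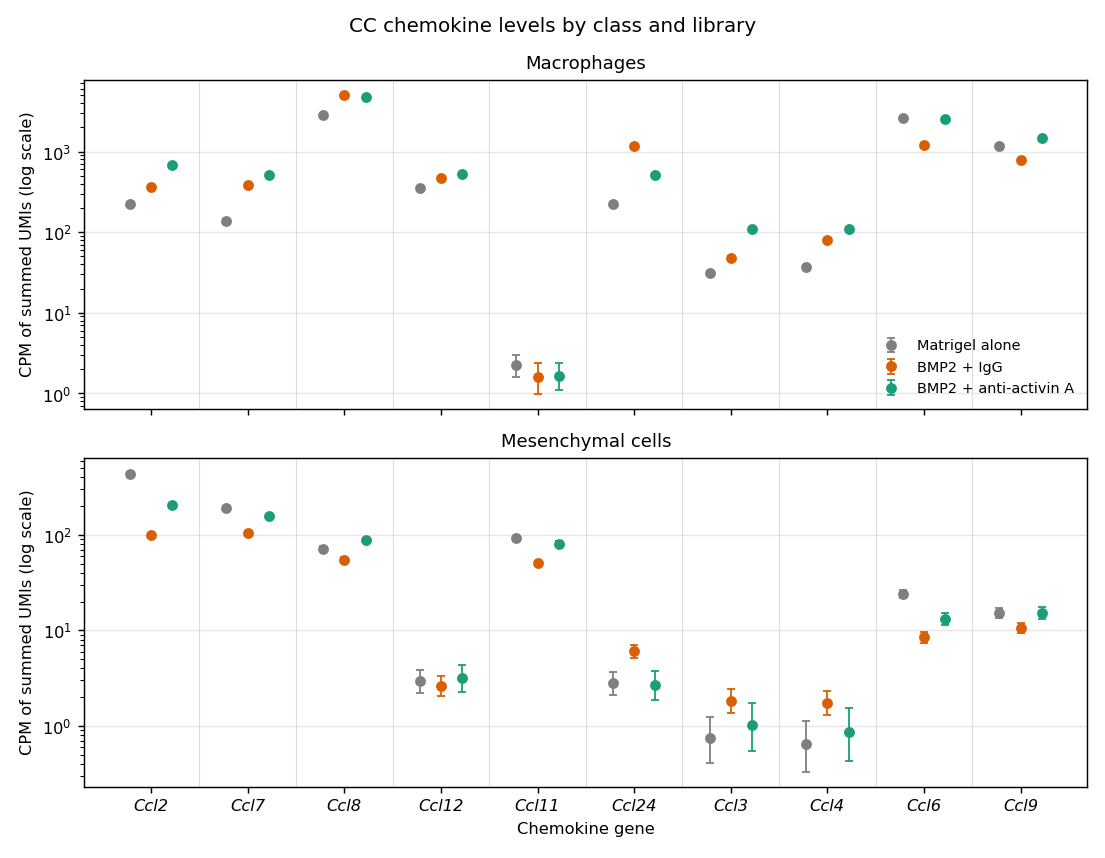
Level of each chemokine as CPM of summed UMIs (log scale) in macrophages (top) and mesenchymal cells (bottom) of the 3 libraries, with exact Poisson 95% intervals that cover counting error only. Ccl8 is the highest gene in macrophages of each library, Ccl24 is highest in the IgG library, and Ccl2 and Ccl11 of mesenchymal cells are lowest in the IgG library.

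RNA set free from broken cells enters every droplet, so each gene's mesenchymal level was set against its macrophage level beside 7 macrophage genes (C1qa, C1qb, C1qc, Ctss, Fcer1g, Laptm5 and Tyrobp) that mesenchymal cells should lack. The mesenchymal level of those genes was 0.906% to 1.04%, 0.508% to 0.788% and 0.477% to 0.813% of their macrophage level in the Matrigel, IgG and antibody libraries. Ccl11 was far above that range, at 4145%, 3186% and 4914%. Ccl2 was at 194%, 27.0% and 29.9% and Ccl7 at 138%, 27.3% and 30.4%. Thus Ccl11 was a mesenchymal transcript in all 3 libraries, and Ccl2 and Ccl7 were transcripts of both classes. Ccl8 was above the range by less, at 2.56%, 1.10% and 1.84%. For Ccl6 (0.918%, 0.709% and 0.528%), Ccl12 (0.836%, 0.564% and 0.600%) and Ccl24 (1.26%, 0.510% and 0.529%) the percentages lay in or close to the range of the macrophage genes, so their mesenchymal levels of 2.64 to 23.9 CPM are read as background. Ccl3 was at 2.42%, 3.83% and 0.933% and Ccl4 at 1.73%, 2.16% and 0.785%, above the range in the IgG library, from 11 to 49 UMIs of each in all mesenchymal cells of a library. Ccl9, from 194 to 286 UMIs, was at 1.31%, 1.33% and 1.05%. The mesenchymal levels of these 3 genes are given only as values.

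**Figure D2:**
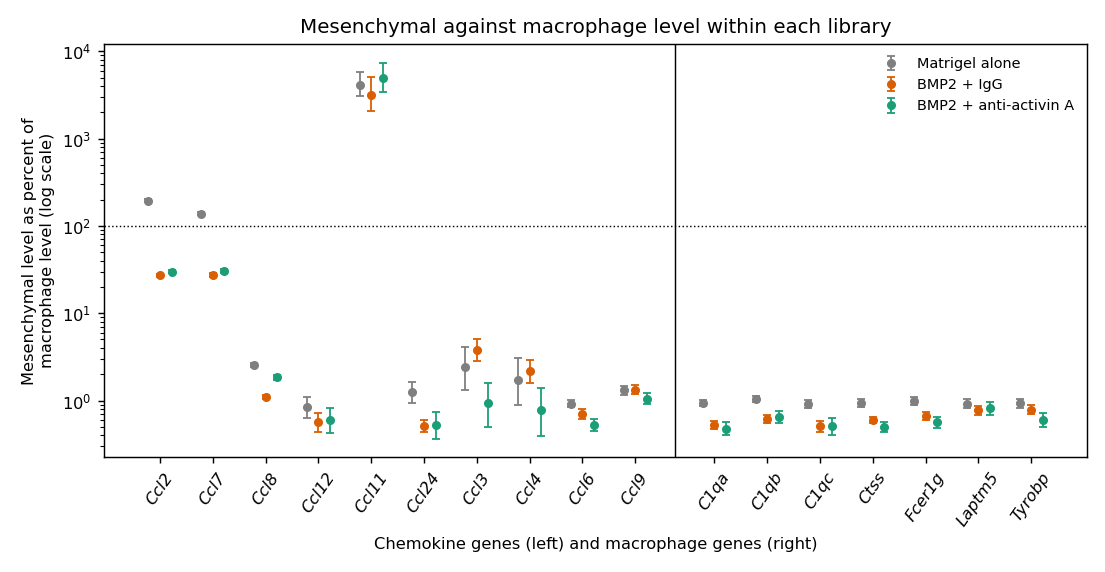
Level in mesenchymal cells as a percent of the level in macrophages of the same library (log scale) for each chemokine (left) and 7 macrophage genes (right), with exact 95% counting intervals; the dotted line marks equal levels. Ccl11 lies above the line in all 3 libraries and Ccl2 and Ccl7 above it in the Matrigel library, while Ccl6, Ccl12 and Ccl24 lie close to the macrophage genes.

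In macrophages, 6 of the 10 chemokines were higher by at least 1.5-fold in the IgG than in the Matrigel library (Ccl2, Ccl3, Ccl4, Ccl7, Ccl8 and Ccl24) and 1 was lower (Ccl6). Over the 13147 genes with at least 10 UMIs in either library, 13.2% were higher and 13.5% lower by that measure. The median log2 ratio was 0.66 over the 10 chemokines and −0.01 over all genes tested. In the antibody library against the IgG library, 4 of 10 were higher (Ccl2, Ccl3, Ccl6 and Ccl9) against 6.97% of 12942 genes, and 1 was lower (Ccl24) against 12.2%. The medians were 0.43 over the chemokines and −0.12 over all genes. Scaling by the median of gene ratios moved the last value to 0.01 and the split of all genes to 9.4% higher and 8.8% lower, and the same 4 and 1 chemokines passed. In mesenchymal cells, 3 of 10 were higher in the IgG than in the Matrigel library (Ccl3, Ccl4 and Ccl24) against 16.6% of 14339 genes, and 4 were lower (Ccl2, Ccl6, Ccl7 and Ccl11) against 21.1%. In the antibody library against the IgG library, 4 were higher (Ccl2, Ccl6, Ccl8 and Ccl11) against 9.88% of 14008 genes and 3 lower (Ccl3, Ccl4 and Ccl24) against 12.7%. Among these, the mesenchymal levels of Ccl6 and Ccl24 lie in or close to the free RNA background, and those of Ccl3 and Ccl4 rest on 11 to 49 UMIs. Mesenchymal Ccl8 was above that background by less than Ccl2 or Ccl11, at 1.10% and 1.84% of its macrophage level in the IgG and antibody libraries. The mesenchymal medians were −0.45 and 0.55 over the chemokines and −0.03 and −0.08 over all genes. Both comparisons use the IgG library, so a high or low value there enters them with opposite signs.

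**Figure D3:**
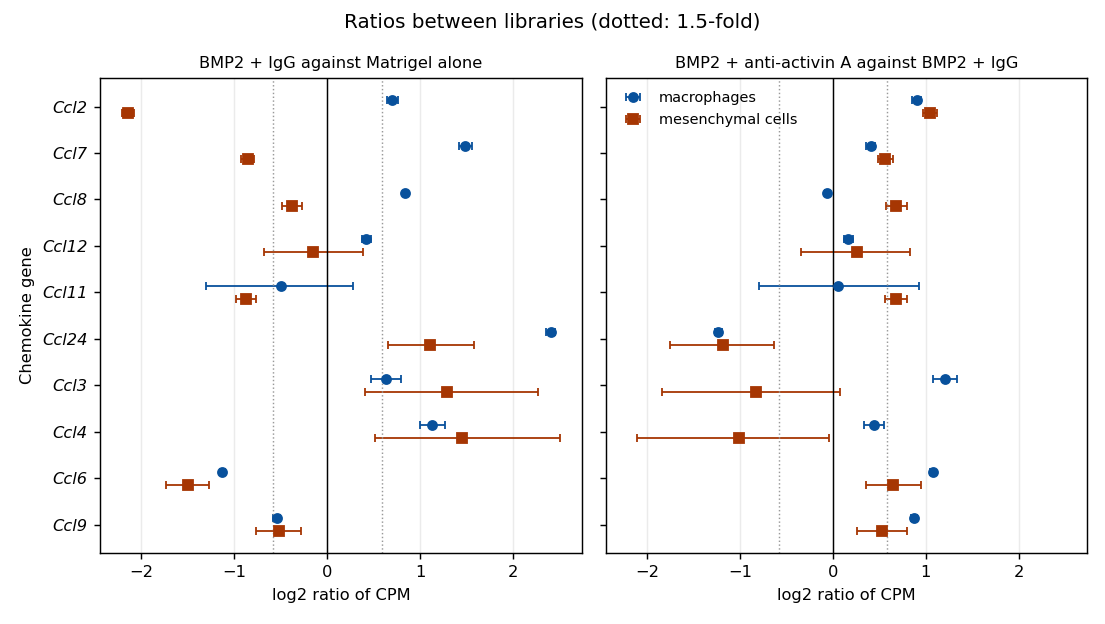
Log2 ratio of CPM for each chemokine in the IgG library against the Matrigel library (left) and the antibody library against the IgG library (right), in macrophages (circles) and mesenchymal cells (squares), with exact 95% counting intervals and dotted lines at 1.5-fold. Ccl2 and Ccl7 lie right of 0 in macrophages and left of 0 in mesenchymal cells on the left, and Ccl24 of macrophages lies far right on the left and left of 0 on the right.

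Ccl24, an eotaxin also made by alternatively activated macrophages, had the largest ratio of the 10 in macrophages. It was at 224, 1187 and 505 CPM, which was 5.30-fold higher (5.13 to 5.48) in the IgG than in the Matrigel library and then 2.35-fold lower (2.29 to 2.41) in the antibody library. The antibody library lay between the others. The share of macrophages with a Ccl24 UMI moved less. After each cell was thinned to 1000 UMIs it was 13.0%, 18.3% and 15.2%, beside 0.209%, 0.832% and 0.347% of mesenchymal cells, and without thinning 23.9%, 25.8% and 28.4% beside 1.87%, 5.62% and 3.89%. A few cells held much of the RNA: 164, 90 and 61 macrophages accounted for 50% of all Ccl24 UMIs of the class, and a single macrophage of the antibody library held 691. Without the 10 highest cells of each class and library the log2 ratios were 2.41 and −1.37, against 2.41 and −1.23 with them. Both eotaxins are known to draw eosinophils, and outside macrophages and mesenchymal cells no cell had at least 3 UMIs of eosinophil markers with fewer of every other type's markers. Ccr3, their receptor, was at 0.933, 2.44 and 1.47 CPM in macrophages and at 18.0, 32.1 and 4.52 CPM in lymphoid cells (3, 25 and 14 UMIs).

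Ccl11, the other eotaxin of the set, was a mesenchymal gene, with 97.5%, 98.0% and 90.0% of its UMIs in mesenchymal cells. Its mesenchymal level was 92.3, 50.3 and 80.8 CPM, that is 1.84-fold lower (1.71 to 1.97) in the IgG than in the Matrigel library and 1.61-fold higher (1.48 to 1.74) in the antibody library than in the IgG library. The IgG library was the lowest of the 3. Its UMIs were also the most concentrated there, with 64.8% of them in 10 cells against 18.1% and 41.1%. Macrophage levels were 2.23, 1.58 and 1.64 CPM from 22 to 43 UMIs, and their counting intervals overlapped.

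The mesenchymal class of the BMP2 libraries held cells with cartilage transcripts, which the Matrigel library lacked. Cells with at least 2 UMIs of Acan and Col2a1 together, the core protein and the collagen of cartilage, made up 0%, 52.0% and 19.0% of mesenchymal cells (0, 769 and 112 cells), beside 0%, 0.739% and 0.0989% of macrophages with as many. In the IgG library those cells had Ccl11 at 4.20 CPM, Ccl2 at 25.5 CPM, Ccl7 at 39.0 CPM and Ccl8 at 28.2 CPM. The other 709 mesenchymal cells of that library had them at 106, 188, 187 and 88.1 CPM. In the antibody library the cartilage cells had no Ccl11 UMI and Ccl2 at 96.2 CPM, Ccl7 at 88.7 CPM and Ccl8 at 16.4 CPM, against 104, 235, 176 and 109 CPM in the other 479 cells in the order Ccl11, Ccl2, Ccl7 and Ccl8. Each of these 4 chemokines was thus lower in the cells with cartilage transcripts, and those cells were more frequent in the IgG library.

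Leaving those cells out changed the mesenchymal comparisons. Ccl11 was then at 92.3, 106 and 104 CPM, 1.15-fold higher (1.07 to 1.24) in the IgG than in the Matrigel library, with a ratio of 0.975 (0.898 to 1.06) between the antibody and IgG libraries. Ccl7, at 191, 106 and 156 CPM over all mesenchymal cells, went to 191, 187 and 176 CPM, with ratios of 0.977 (0.926 to 1.03) and 0.940 (0.883 to 1.001). Neither gene then passed 1.5-fold in either comparison. Ccl2 stayed lower in the IgG library, by 2.33-fold (2.22 to 2.44), and its ratio between the antibody and IgG libraries was 1.25 (1.18 to 1.32). Ccl8 was at 71.7, 88.1 and 109 CPM, against 71.7, 55.2 and 88.4 CPM over all mesenchymal cells.

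Ccl2, the main monocyte attractant of the family, differed in opposite directions in the 2 classes between the IgG and Matrigel libraries. In macrophages it was at 226, 366 and 683 CPM, 1.62-fold higher (1.56 to 1.69) in the IgG than in the Matrigel library and another 1.87-fold higher (1.81 to 1.93) in the antibody library. In mesenchymal cells it was at 439, 99.1 and 204 CPM, 4.43-fold lower (4.24 to 4.63) in the IgG than in the Matrigel library and 2.06-fold higher (1.95 to 2.18) in the antibody library than in the IgG library. The Matrigel library was the lowest over all macrophages and the highest for mesenchymal cells. Not every macrophage subset described below had this direction. Ccl2 was lower in the IgG than in the Matrigel library in Lyve1-only cells (ratio 0.807, 0.679 to 0.955). The same held for cells with more than 1 of Lyve1, Arg1 and Hopx (0.689, 0.592 to 0.802). It was higher in Arg1-only cells (2.11), Hopx-only cells (2.00) and cells with none of these genes (1.34). The cells that held Ccl2 also differed: macrophages carried 34.1%, 63.0% and 78.5% of its UMIs and mesenchymal cells 64.5%, 33.0% and 16.9%. The shares also follow the numbers of cells captured. In mesenchymal cells 17.9%, 38.7% and 47.9% of the Ccl2 UMIs were in 10 cells, and without these the log2 ratios were −2.57 and 0.84, against −2.15 and 1.04 with them.

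Ccl7, which lies next to Ccl2 and shares its receptor Ccr2, followed the same directions. Its macrophage level was 138, 387 and 514 CPM, 2.80-fold higher (2.67 to 2.94) in the IgG than in the Matrigel library and a further 1.33-fold higher (1.28 to 1.37) in the antibody library. In mesenchymal cells it was 1.81-fold lower (1.72 to 1.90) in the IgG library and 1.48-fold higher (1.40 to 1.57) in the antibody library. Macrophages held 42.0%, 62.8% and 76.6% of its UMIs. Ccl12, the third Ccr2 ligand of the set, was at 349, 467 and 524 CPM in macrophages, with ratios of 1.34 (1.29 to 1.38) and 1.12 (1.09 to 1.16), both under 1.5-fold. Over all macrophages, the 3 Ccr2 ligands had their lowest level in the Matrigel library and their highest in the antibody library. For Ccl12 the log2 ratio between the antibody and IgG libraries was −0.02 to 0.30 over the alternatives. Among the macrophage subsets described below, Ccl12 kept this order in Arg1-only cells (269.5, 602 and 888 CPM). In cells with no UMI of Lyve1, Arg1 or Hopx it was at 393, 572 and 333 CPM, lowest in the antibody library. Ccr2 itself was at 720.1, 704 and 448 CPM in macrophages, lowest in the antibody library. Summed monocyte markers (Ly6c2, Plac8, Ccr2 and Chil3) were at 925, 1029 and 928 CPM.

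Ccl8 had the highest level of the 10 in macrophages, at 2808, 5028 and 4802 CPM. It was 1.79-fold higher (1.77 to 1.81) in the IgG than in the Matrigel library, and the antibody and IgG libraries differed by a ratio of 0.955 (0.946 to 0.965). The share of macrophages with a UMI was highest in the Matrigel library, where the level was lowest: after thinning it was 39.9%, 36.5% and 31.6% beside 5.86%, 4.99% and 9.36% of mesenchymal cells; without thinning it was 48.6%, 44.3% and 41.9% beside 31.4%, 34.0% and 44.5%. The share and the level therefore give no single order of the libraries. Cells thinned before they were classed gave a log2 ratio of 0.55 for Ccl8 and for Ccl2 between the IgG and Matrigel libraries, against 0.84 and 0.70, and both were then under 1.5-fold. One macrophage of the antibody library held 1494 Ccl8 UMIs, and 321, 138 and 106 cells accounted for 50% of them.

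Ccl6 and Ccl9 were lowest in the IgG library. Ccl6 was at 2603, 1189 and 2503 CPM in macrophages, 2.19-fold lower (2.15 to 2.23) in the IgG than in the Matrigel library and 2.11-fold higher (2.07 to 2.14) in the antibody library than in the IgG library. Ccl9 had 1158, 793 and 1452 CPM. The IgG library was 1.46-fold below Matrigel (1.43 to 1.49) and the antibody library 1.83-fold above IgG (1.79 to 1.87). The share of macrophages with a Ccl6 UMI showed the same order after thinning, at 63.6%, 32.3% and 59.3% beside 2.41%, 0.832% and 1.56% of mesenchymal cells, and was 79.1%, 47.3% and 78.4% beside 12.3%, 8.59% and 15.7% without thinning. For Ccl9 the thinned shares were 53.0%, 37.8% and 58.8% beside 1.36%, 1.18% and 0.867%, and the unthinned ones 74.9%, 59.0% and 82.3% beside 8.48%, 12.3% and 15.6%. In macrophages no 10 cells held more than 6.40% of the UMIs of either gene.

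Ccl3 and Ccl4, which activated myeloid cells release, were low in macrophages, at 30.7, 47.5 and 109.5 CPM and at 36.9, 80.9 and 110.1 CPM. Ccl3 was 1.55-fold higher (1.38 to 1.73) in the IgG than in the Matrigel library and 2.30-fold higher (2.11 to 2.52) in the antibody library than in the IgG library. Ccl4 had ratios of 2.19 (1.99 to 2.41) and 1.36 (1.27 to 1.47). The first of these comparisons rested on few cells and on cells with markers of other types. In macrophages of the IgG library, 10 cells held 42.4% of the Ccl4 UMIs and 1 cell held 149 of 1126, and without the 10 highest cells the log2 ratios between the IgG and Matrigel libraries were 0.36 for Ccl3 and 0.48 for Ccl4, against 0.63 and 1.13 with them. Without macrophages that had a UMI of other types' markers they were −0.11 and 0.34, and in cells with both Csf1r and Adgre1 they were −0.18 and −0.04. Ccl3 in the antibody library against the IgG library stayed above 1.5-fold under the same 3 settings, with log2 ratios of 1.28, 1.73 and 1.61, and Ccl4, at 0.45 over all macrophages, was then at 0.75, 1.02 and 1.18. Cells thinned before they were classed gave 1.37 for Ccl3 and 0.53 for Ccl4 in the IgG against the Matrigel library.

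**Figure D4:**
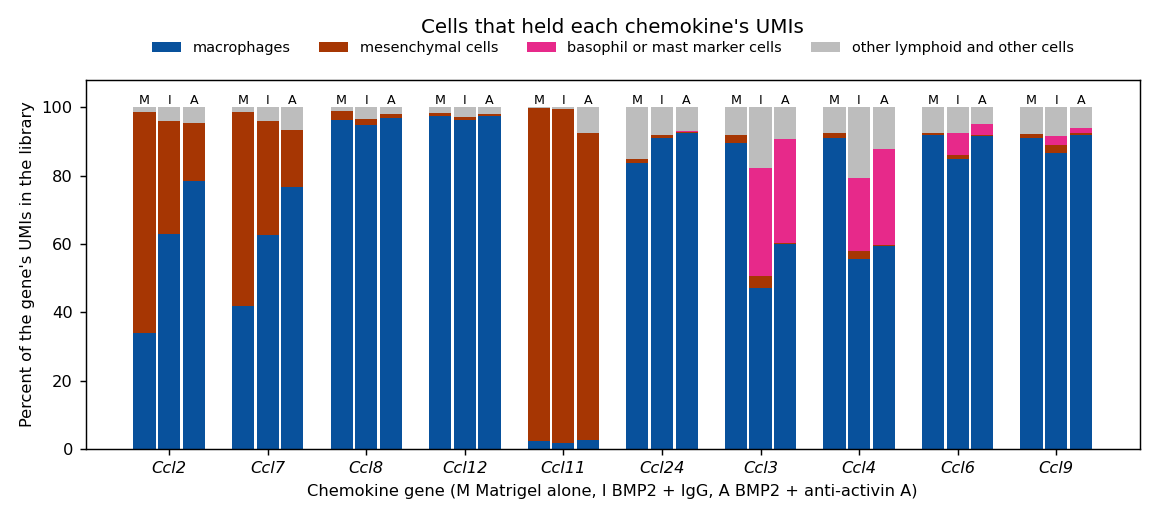
Percent of each chemokine's UMIs found in macrophages, mesenchymal cells, cells with at least 3 UMIs of basophil or mast cell markers, and all other cells, for the Matrigel (M), IgG (I) and antibody (A) libraries. Ccl11 is almost all mesenchymal, Ccl2 and Ccl7 lie mostly in mesenchymal cells in M and in macrophages in I and A, and basophil or mast marker cells hold about as much Ccl3 and Ccl4 in I and A as all other non-macrophage cells together or more.

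Much of the Ccl3 and Ccl4 RNA of the BMP2 libraries lay outside macrophages. Macrophages held 89.7%, 47.1% and 60.0% of the Ccl3 UMIs and 91.1%, 55.6% and 59.4% of the Ccl4 UMIs. Cells outside both main classes with at least 3 UMIs of the basophil and mast cell markers Mcpt8, Cpa3, Mcpt4 and Cma1, and fewer of other types' markers, numbered 0, 55 and 46. In the IgG and antibody libraries these few cells had Ccl3 at 6030 and 10501 CPM and Ccl4 at 5894 and 9795 CPM, and they held 31.6% and 30.5% of all Ccl3 UMIs and 21.5% and 28.0% of all Ccl4 UMIs. They also carried Ccl6 at 16626 and 16325 CPM and Ccl9 at 4783 and 4796 CPM, above the macrophage levels of both genes, but only 6.30% and 3.17% of all Ccl6 UMIs. Ccl2, Ccl7, Ccl8 and Ccl24 were at 0 to 139 CPM in them. Cells with neutrophil markers (2, 69 and 57 cells) had Ccl4 at 1917 and 2011 CPM in the IgG and antibody libraries. Without macrophages that had a UMI of Mcpt8, a basophil protease, the log2 ratios between the IgG and Matrigel libraries were 0.09 for Ccl3 and 0.88 for Ccl4.

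Macrophages were divided by which of 3 genes had a UMI: Lyve1, a hyaluronan receptor of resident perivascular macrophages, Arg1, an arginine-degrading enzyme of alternatively activated macrophages, and Hopx, a homeodomain protein. Cells with Lyve1 only numbered 1015, 123 and 139, with Arg1 only 240, 1038 and 965, with Hopx only 765, 267 and 354, with more than 1 of them 210, 337 and 889, and with none 3333, 1346 and 687. The share of macrophages with an Arg1 UMI was 7.08%, 44.1% and 60.5%, or 3.75%, 33.2% and 45.8% after thinning. A cell falls in a subset partly by its depth, and the antibody library's macrophages were the deepest. Macrophages with a Lyve1 UMI numbered 1149, 185 and 488 in all, and those with a Hopx UMI 914, 568 and 1086. The Lyve1-only and Hopx-only subsets thus leave out a larger share of such cells in the antibody library than in the Matrigel library.

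**Figure D5:**
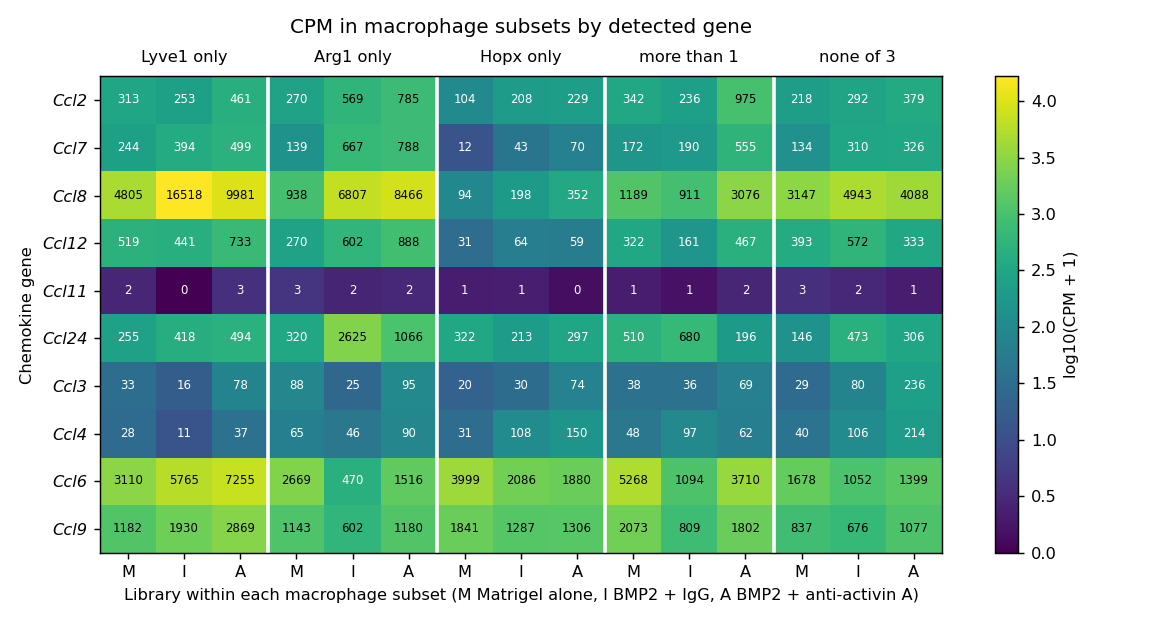
CPM of each chemokine (printed in each cell; colour is log10 of CPM + 1) in macrophages with a UMI of Lyve1 only, Arg1 only, Hopx only, more than 1 of these or none, for the Matrigel (M), IgG (I) and antibody (A) libraries. Ccl24 is highest in Arg1-only cells of the IgG library, Ccl8 in Lyve1-only cells of the IgG library, and Ccl8, Ccl7 and Ccl12 are lowest in Hopx-only cells.

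Ccl24 RNA of the BMP2 libraries lay mainly in the Arg1-only macrophages. They had 320, 2625 and 1066 CPM, 8.20-fold higher (7.12 to 9.49) in the IgG than in the Matrigel library and 2.46-fold lower (2.39 to 2.54) in the antibody library. Macrophages with none of the 3 genes had 146.5, 473 and 306 CPM. In the IgG library Arg1-only cells were thus 5.55-fold (5.32 to 5.79) above the cells with none, and in the antibody library 3.49-fold (3.26 to 3.73). They were 33.4% and 31.8% of macrophages in those libraries and held 74.1% and 63.8% of the macrophage Ccl24 UMIs. Ccl24 was lower in the antibody than in the IgG library also among cells with none of the genes and with more than 1 (509.7, 679.8 and 196 CPM), but not in Lyve1-only cells (255, 418 and 494 CPM) or Hopx-only cells (322, 213 and 297 CPM).

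Ccl8 differed widely between the subsets. Lyve1-only cells had 4805, 16518 and 9981 CPM and were above every other subset in the Matrigel and IgG libraries. In the antibody library 1 of the 139 Lyve1-only cells held 1494 of their 6996 Ccl8 UMIs, and with all cells thinned Lyve1-only and Arg1-only cells were at 7194 and 7159 CPM, so these subsets are not ordered there. Hopx-only cells had 93.5, 198 and 352 CPM, which was 33.7-fold (30.2 to 37.7), 24.9-fold (22.3 to 27.9) and 11.6-fold (10.8 to 12.5) below the cells with none of the 3 genes. Arg1-only cells had 938, 6807 and 8466 CPM, 7.26-fold higher (6.69 to 7.90) in the IgG than in the Matrigel library. Ccl12 and Ccl7 had the same low subset: Ccl12 was at 31.5, 63.6 and 58.7 CPM and Ccl7 at 11.7, 43.2 and 70.4 CPM in Hopx-only cells, against 393, 572 and 333 CPM and 134, 310 and 326 CPM in the cells with none. Ccl2 was lowest in Hopx-only cells as well, at 104, 208 and 229 CPM, and in Arg1-only cells was at 270, 569 and 785 CPM.

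Ccl6 and Ccl9 had another order of subsets. Hopx-only cells, the lowest subset for Ccl8, had Ccl6 at 3999, 2086 and 1880 CPM, above the 1678, 1052 and 1399 CPM of cells with none of the genes. Lyve1-only cells had 3110, 5765 and 7255 CPM. A lower Ccl6 level in the IgG than in the Matrigel library was seen in every subset but the Lyve1-only cells. Arg1-only cells had 2669, 470.1 and 1516 CPM. This was 5.68-fold lower (5.32 to 6.06) in the IgG than in the Matrigel library and 3.23-fold below (3.08 to 3.38) the antibody library. Cells with more than 1 of the genes had 5268, 1094 and 3710 CPM, 4.82-fold lower (4.56 to 5.09) in the IgG than in the Matrigel library and 3.39-fold below (3.24 to 3.56) the antibody library. Hopx-only cells and cells with none of the genes were 1.92-fold (1.85 to 1.99) and 1.6-fold (1.55 to 1.64) lower in the IgG than in the Matrigel library. Their ratios between the antibody and IgG libraries were 0.901 and 1.33. In Lyve1-only cells Ccl6 was instead 1.85-fold higher (1.79 to 1.92) in the IgG than in the Matrigel library. Ccl9 showed the same pair of directions, with Arg1-only cells at 1143, 602 and 1180 CPM and Lyve1-only cells at 1182, 1930 and 2869 CPM. The difference between these subsets was not tested. For Ccl3 and Ccl4, cells with none of the 3 genes had the highest Ccl3 in the IgG and antibody libraries (79.7 and 236 CPM) and the highest Ccl4 in the antibody library (214 CPM). Few cells carried these values: 10 cells held 38.9% and 47.7% of that Ccl3 and 50.9% of that Ccl4. The Ccl3 log2 ratio of Hopx cells in the IgG library was −1.40 and ranged from −2.95 to −0.12 over the alternatives. That of Arg1 cells there was −1.67 and ranged from −2.91 to −0.37, and neither changed sign.

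Single macrophages tended to carry the same pairs of chemokines. With every cell thinned to 1000 UMIs, 22.7%, 47.2% and 50.6% of macrophages with a Ccl2 UMI also had one of Ccl7, against 7.64%, 12.0% and 11.6% of the rest. For Ccl9 in cells with and without Ccl6 the shares were 66.9%, 66.3% and 73.6% against 28.7%, 24.2% and 37.4%. For Ccl4 in cells with and without Ccl3 they were 13.7%, 37.4% and 27.8% against 3.11%, 2.61% and 3.51%. Ccl12 was found in 29.3%, 40.4% and 43.3% of macrophages with Ccl8 and in 11.7%, 7.93% and 10.5% of the rest. Ccl24 was found in 13.8%, 43.5% and 26.1% of macrophages with Ccl7 and in 13.0%, 12.7% and 12.1% of the rest. These pairs are a selection, and all but Ccl7 and Ccl24 lie close to each other on the chromosome. Other pairs on different chromosomes were also found together. Ccl24 was in 17.65%, 21.5% and 18.5% of macrophages with Ccl6 and in 4.995%, 16.7% and 10.5% of the rest. With Ccl8 the shares were 11.9%, 32.0% and 28.5% against 13.8%, 10.3% and 9.12%. Whether closeness on the chromosome goes with shared detection was not tested.

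The neighbouring pairs above also varied together over 24 points, each a class or macrophage subset of at least 50 cells in a library. The points share libraries and depth and are not independent. Over them Pearson's r of log2(CPM + 1) was 0.98 for Ccl6 and Ccl9, 0.95 for Ccl3 and Ccl4, 0.92 for Ccl8 and Ccl12 and 0.91 for Ccl2 and Ccl7. For Ccl7 and Ccl24 it was 0.49, below the 0.87 of Ccl9 and Ccl24 and the 0.82 of Ccl12 and Ccl24. Outside the chemokine and marker lists, the gene most like each in level among 6411 genes was Adam9 for Ccl2 (0.90), Itga9 for Ccl7 (0.88), Lgmn for Ccl8 (0.97), Pf4 for Ccl12 (0.97), Fcgr2b for Ccl24 (0.94), Map3k11 for Ccl6 (0.97), Alox5ap for Ccl9 (0.98), Aldh1a3 for Ccl11 (0.93) and Osm for both Ccl3 and Ccl4 (0.91). Lgmn encodes a lysosomal protease, Fcgr2b the inhibitory IgG receptor and Osm the cytokine oncostatin M. These correlations describe the classes and subsets and carry no test.

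Start-site windows were at hand in RefSeq (GRCm38.p6) for 5 of the 10 genes, Ccl3, Ccl6, Ccl8, Ccl9 and Ccl12. Because Ccl6 and Ccl9 varied together over subsets and libraries, the 80 bases before their start sites are shown, with the longest run they share near the start site in capitals, on the minus strand at chr11:83593088-83593167 and chr11:83578637-83578716.
Ccl6: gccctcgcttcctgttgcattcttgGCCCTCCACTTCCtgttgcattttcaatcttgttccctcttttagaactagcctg
Ccl9: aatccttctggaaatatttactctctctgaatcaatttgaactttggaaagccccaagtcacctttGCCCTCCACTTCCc
The 120 bases around the start site (the last 70 before and the first 50 after it) were aligned, and identity counts aligned bases without gaps. For these 2 genes 79 bases aligned with 84.8% identity, that is 67 identical bases, and a shared run of 13 bases. The other 9 pairs of the 5 genes aligned over 92 to 112 bases with 51.8% to 67.0% identity and runs of 6 to 8 bases. Ccl12 and Ccl8 had more identical bases, 73 of 112, so the higher percentage of Ccl6 and Ccl9 covers a shorter aligned part. Their shared run began at −55 in Ccl6 and at −14 in Ccl9. Ccl12 and Ccl8, neighbours whose levels also varied together, each had the letters TATAAA close to the start site, shown in capitals in the 50 bases before it on the plus strand at chr11:82101795-82101844 and chr11:82115135-82115184.
Ccl12: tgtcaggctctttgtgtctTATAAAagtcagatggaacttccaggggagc
Ccl8: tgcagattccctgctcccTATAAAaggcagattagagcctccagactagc
TATAAA, searched on both strands of the 300-base windows, was in 3 of the 5 (Ccl12, Ccl8 and Ccl9) and in 13.6% of 32851 promoters. GAGGAA, a core of PU.1 sites, was in Ccl12, Ccl8 and Ccl3 and in 28.3% of promoters, and TGANTCA, the AP-1 letters, was in Ccl9 and in 7.8%. These are matches of letters and not binding sites.

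Receptors of CC chemokines were measured beside their ligands. Of 14 receptor genes, 9 had at least 10 UMIs in macrophages of the IgG or Matrigel library; 7 were higher by 1.5-fold in the IgG library and 1 was lower, against 13.2% and 13.5% of all genes tested, with a median log2 ratio of 1.10. Ccr1, the receptor of Ccl6 and Ccl9, was at 87.4, 179.7 and 196 CPM. In the antibody library against the IgG library, 1 of 9 was higher (Ccr7) and 5 were lower, against 6.97% and 12.2% of all genes, with a median of −0.65. Ccr8, the receptor of mouse Ccl8, had no UMI in macrophages or mesenchymal cells of any library. In mesenchymal cells, the scavenging receptors Ackr2 and Ackr1, which bind chemokines without G protein signalling, were at 11.8, 0.854 and 6.84 CPM and at 27.3, 5.49 and 15.5 CPM, lowest in the IgG library. Without the cells with Acan and Col2a1 UMIs they were at 11.8, 1.73 and 8.78 CPM and at 27.3, 10.9 and 19.8 CPM.

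Of 10 CC chemokine genes outside the set, 5 passed the minimum of UMIs in macrophages, and 3 of them (Ccl5, Ccl17 and Ccl22) were higher in the IgG than in the Matrigel library, against 13.2% of all genes. Ccl5 was at 6.58, 35.4 and 68.6 CPM and Ccl17, at 0.466, 70.8 and 68.9 CPM, had 9 UMIs in the Matrigel library. Markers of other cell types were also found in this class. Dendritic cell markers summed to 60.4, 143 and 74.6 CPM there, and T and NK cell markers to 1.40, 20.75 and 22.3 CPM. How much of the Ccl5, Ccl17 and Ccl22 RNA lay in such cells was not tested. Of 12 inflammatory inducers and NF-kB feedback genes, 11 were measured. In macrophages of the IgG library against the Matrigel library 3 were higher (Il1b, Il6 and Ptgs2) and 1 lower (Nfkbiz), against 13.2% and 13.5% of all genes. In the antibody library against the IgG library 2 were higher (Tnf and Il6) and 1 lower (Ptgs2), against 6.97% and 12.2%. Il1b was at 54.7, 196 and 204 CPM and Tnf at 43.6, 57.5 and 93.2 CPM. Of 11 genes of the interleukin 4 and 13 axis, which can induce Ccl24, 6 were higher and 2 lower in the IgG than in the Matrigel library (13.2% and 13.5% of all genes), among them Arg1 at 54.9, 1129 and 1626 CPM and Retnla at 6670, 845 and 991 CPM. In the antibody library against the IgG library 1 was higher and 1 lower (Il4 and Il13), against 6.97% and 12.2%.

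Immediate early and heat shock genes, which also rise when tissue is dissociated, moved with several chemokines, but not in every comparison. In mesenchymal cells 11 of 13 were lower in the IgG than in the Matrigel library and 1 was higher (Ier3), and 10 were higher in the antibody library than in the IgG library, with median log2 ratios of −1.21 and 1.04, against 21.1% of all genes lower in the first comparison and 9.88% higher in the second. Egr1 was at 141, 28.0 and 70.5 CPM there, and at 141, 37.0 and 75.7 CPM without the cells with Acan and Col2a1 UMIs, where Ccl2 was at 439, 188 and 235 CPM. In macrophages 3 were lower and 1 higher in the first comparison (13.5% and 13.2% of all genes). Their median log2 ratio there was −0.26, against 0.66 over the 10 chemokines. In the second comparison 9 were higher and 0 lower (6.97% and 12.2%), with a median of 0.69, and Ccl2, Ccl3, Ccl6 and Ccl9 were higher as well. The part of dissociation in the chemokine levels was not tested.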

How the data were processed

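The authors deposited raw UMI counts, 1 whole number for each gene in each barcode and not normalized, as the file headers and values show. Cell Ranger 3.0.2 and mm10 appear in the submitters' processing notes; how cells were called is not given in the sources used. Cells were kept at 300 genes or more, 500 UMIs or more and no more than 15% mitochondrial UMIs, which removed 26, 107 and 146 barcodes. Scrublet (scanpy 1.11.5) marked 2, 3 and 4 cells, under 0.5% of them, so the highest-scoring cells were removed instead at 0.8% per 1000 cells (682, 289 and 292). UMIs were summed per class and library as CPM, with exact Poisson intervals for levels, exact conditional binomial intervals for ratios and Clopper-Pearson intervals for shares (scipy 1.17.1), all at 95%. A gene was called higher or lower where the ratio reached 1.5 with at least 10 UMIs in either library; a class at 0 was set to 3 counts. The ratios were checked on simulated data with known fold changes. Each library was thinned with seed 1 to 1000 UMIs per cell, without shallower cells (233, 113 and 82 macrophages and 70, 35 and 14 mesenchymal cells). All 10 genes are named in every class, other genes only from lists, and for each of the 10 the genes most like it over 24 points, each at 50 CPM or more in at least 1. The members and lists were chosen with earlier results of these data known. Alternatives were the doublet, barcode, class, scaling, thinning and threshold choices, and 2 added after seeing the data left out mesenchymal cells with Acan and Col2a1 UMIs or macrophages with a Mcpt8 UMI. A receptor gene and 1 coding stretch are not reported here.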

Additional observations from a re-analysis of the deposited data

Results flagged for a closer look

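Ccl2 and Ccl7 had opposite directions in the 2 classes between the IgG and Matrigel libraries: the log2 ratio of Ccl2 was 0.70 in macrophages and −2.15 in mesenchymal cells, and that of Ccl7 was 1.49 and −0.86. Without the mesenchymal cells with Acan and Col2a1 UMIs the mesenchymal values were −1.22 for Ccl2 and −0.034 for Ccl7, a ratio of 0.977 (0.926 to 1.03), so for Ccl7 the opposite direction was then within counting error. Ccl3 had log2 ratios of 1.20 in macrophages and −0.83 in mesenchymal cells between the antibody and IgG libraries, the latter from 49 and 13 UMIs. With 1 library per group the difference between the classes was not tested.

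Chemokine RNA also appeared in cells outside both classes at more than in the Matrigel library. Ccl3 was at 232 CPM in lymphoid cells and 233 CPM in other cells of the IgG library and at 514 CPM in other cells of the antibody library, against 60.1 and 23.1 CPM in lymphoid and other cells of the Matrigel library. Ccl4 was at 331, 268 and 576 CPM in the same order, against 30.0 and 27.8 CPM. Ccl11 was at 8.72 CPM in lymphoid cells and 33.1 CPM in other cells of the antibody library, where 25 of 27 and 40 of 58 UMIs lay in 1 cell each.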

How the results depend on the processing

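No paired analysis was possible because each group has 1 library. Of 88 counts of members under an alternative, 67 were within 1.5 times the reported count. In macrophages of the IgG library against the Matrigel library, 6 members higher became 3 after thinning before classing and 3 at a ratio of 2, and 1 lower became 2 after thinning, without cells with other types' markers, or by the mean of per-cell CPM, and 3 without the 10 highest cells. In macrophages of the antibody library against the IgG library, 4 higher became 2 at a ratio of 2. In mesenchymal cells of the IgG library against the Matrigel library, 3 higher became 1 after thinning, with doublets or every barcode kept, or by the per-cell mean, and 4 lower became 2 without Acan and Col2a1 cells or at a ratio of 2. In mesenchymal cells of the antibody library against the IgG library, 4 higher became 2 with doublets or every barcode kept or without the 10 highest cells, and 1 without Acan and Col2a1 cells or at a ratio of 2; 3 lower became 1 after thinning, by the per-cell mean, or without Acan and Col2a1 cells.

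Of 353 member ratios between libraries under an alternative 20 changed sign, 7 of them where the reported ratio was past 1.5-fold. Of 589 ratios within libraries 37 did, 4 of them past 1.5-fold. The values of those past 1.5-fold follow. Without Acan and Col2a1 cells the mesenchymal log2 ratios of Ccl11 were 0.20 (IgG against Matrigel) and −0.036 (antibody against IgG), and that of Ccl3 was 0.30 (antibody against IgG). In macrophages of the IgG library against the Matrigel library Ccl3 was −0.18 in cells with both Csf1r and Adgre1 and −0.11 without cells with other types' markers, and Ccl4 was −0.041 in cells with both. By the per-cell mean, mesenchymal Ccl24 was −0.96 (IgG against Matrigel) and Ccl11 of Arg1 macrophages in the antibody library −0.12. Ccl24 in Lyve1 macrophages of the antibody library was −1.05 when all cells with Lyve1 were set against all without, Ccl4 in Arg1 macrophages of the Matrigel library −0.27 without the 10 highest cells, and Ccl6 in Hopx macrophages of the IgG library −0.82 after thinning. The causes were not tested. A further 27 alternatives gave no value because a side had 0 UMIs or both had fewer than 10. With 11 to 49 UMIs for Ccl3 and Ccl4 in mesenchymal cells and 22 to 43 for Ccl11 in macrophages, depth limits those ratios.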

Other observations

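Ccl1, a CC chemokine outside the set that binds Ccr8, had 318 UMIs in lymphoid cells of the IgG library (408 CPM), 61 in those of the antibody library (19.7 CPM) and 0 in those of the Matrigel library. Ccl5 had lymphoid levels of 1255, 1058 and 396 CPM (Matrigel, IgG, antibody), against 6.58, 35.4 and 68.6 CPM in macrophages.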
